A study of Mus musculus with 6 samples.

Results

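The core pluripotency factors were taken as a set of 10 genes, Pou5f1, Sox2, Nanog, Klf2, Klf4, Esrrb, Tbx3l, Zfp42, Sall4 and Prdm14, whose promoter probes were collected by gene symbol or accession. Probes were found for 7 of the 10, with 271 probes in all, among 16596 promoters that had a window of 6 neighbouring probes. Nanog, Tbx3l and Prdm14 had no probe under these names and were not analysed here. Rybp occupancy was measured by ChIP-chip, which hybridises DNA recovered with an anti-Rybp antibody (IP) together with input DNA, in mouse embryonic stem (ES) cells that were wild type (WT), carried a constitutive knockout of Eed (Eed-KO) or carried a constitutive knockout of Dnmt1 (Dnmt1-KO). The promoter set was split over 2 array designs, so each gene was measured on 1 array per genotype, 6 arrays in all, and no value has a replicate. All cultures were in medium with serum and the leukaemia inhibitory factor product ESGRO, either on irradiated embryonic fibroblasts or on gelatin, and which culture had fibroblasts was not stated. Whether each knockout was a single clone was not stated either.

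The pluripotency factors hold ES cells in an undifferentiated state. Pou5f1 (Oct4), Sox2 and Nanog bind each other's regulatory DNA, and Klf2, Klf4, Esrrb, Zfp42 and Sall4 join them in the network of self-renewing cells. Rybp belongs to the variant forms of Polycomb repressive complex 1, which ubiquitinate histone H2A and occupy many CpG-rich promoters. Polycomb repressive complex 2 needs Eed to place the repressive methylation on histone H3, and Dnmt1 copies DNA methylation at CpG sites after replication. Occupancy is not expression, so the labelled cell type could not be checked by the level of marker transcripts.

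The members differ widely in the CpG content of their promoters, a property with which array levels rose over all promoters. RefSeq promoters, from 250 bases before to 50 after the start, were given for 6 of the 7 members (Sall4 was not in the table). The Klf4, Klf2 and Esrrb promoters, with 40, 32 and 7 CpGs in 300 bases, are examples of high and low content within the set. They are printed with each CpG in capitals.
Klf4 promoter, GRCm38.p6 chr4:55532426-55532725, strand minus: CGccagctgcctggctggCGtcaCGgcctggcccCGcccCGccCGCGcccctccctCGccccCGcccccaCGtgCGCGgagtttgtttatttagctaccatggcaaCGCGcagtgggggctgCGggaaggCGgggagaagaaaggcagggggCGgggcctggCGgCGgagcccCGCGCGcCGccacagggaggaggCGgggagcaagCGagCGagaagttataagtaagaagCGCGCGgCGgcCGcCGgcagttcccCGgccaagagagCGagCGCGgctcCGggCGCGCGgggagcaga
Klf2 promoter, GRCm38.p6 chr8:72318812-72319111, strand plus: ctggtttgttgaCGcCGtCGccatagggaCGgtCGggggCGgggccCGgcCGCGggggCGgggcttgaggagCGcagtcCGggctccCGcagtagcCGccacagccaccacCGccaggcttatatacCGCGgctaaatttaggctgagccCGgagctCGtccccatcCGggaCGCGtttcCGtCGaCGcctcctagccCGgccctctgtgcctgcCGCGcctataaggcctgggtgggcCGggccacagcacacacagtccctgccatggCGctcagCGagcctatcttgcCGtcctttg
Esrrb promoter, GRCm38.p6 chr12:86360867-86361166, strand plus: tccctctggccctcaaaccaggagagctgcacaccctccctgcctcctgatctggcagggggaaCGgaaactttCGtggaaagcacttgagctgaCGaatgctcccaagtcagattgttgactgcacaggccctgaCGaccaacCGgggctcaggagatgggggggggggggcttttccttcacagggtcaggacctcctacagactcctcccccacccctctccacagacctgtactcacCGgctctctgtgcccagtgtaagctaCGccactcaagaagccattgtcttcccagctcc
The Sox2 promoter held 27 CpGs, that of Zfp42 and the Pou5f1 promoter with array probes 11 each, and the median over 32851 RefSeq promoters was 7. Another RefSeq promoter of Pou5f1, without array probes, held 6. Among letters searched on both strands, the E-box CACGTG, which Myc-family and Mga-Max dimers recognise, was found once in Klf4 and in none of the other promoters of these members (7.15% of all promoters held it). The E2F-type letters GCGGGA occurred once in Klf2 and once in Klf4 (20.0% of all promoters). The GC box GGGCGG occurred 3 times in Klf4, 2 times each in Klf2, Sox2 and Zfp42, once in the Pou5f1 promoter that holds array probes, and not in Esrrb (35.7% of all promoters).

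At the transcription start, no member was bound by Rybp past 2-fold enrichment in WT cells. The level of a promoter is the mean log2 IP/input ratio, centred on the array median, of the 6 neighbouring probes nearest the annotated start, so that 0 is the typical probe and 1 is 2-fold enrichment. The rule of size used here calls a promoter bound at a level of at least 1, and 0 of 7 members met it in WT, where 1.9% of all promoters did. In Eed-KO again 0 of 7 met it, against 2% of all promoters. In Dnmt1-KO 4 of 7 met it, Pou5f1, Sox2, Klf2 and Klf4, against 36% of all promoters.

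Sox2, the HMG-box partner of Pou5f1, had the highest WT level of the set at these settings. Its start window (chr3:34840881-34842358 in probe coordinates, for which no source used here names the build) had levels of 0.69 ± 0.41 in WT, 0.60 ± 0.48 in Eed-KO and 1.53 ± 0.18 in Dnmt1-KO (SD over 6 probes, here and below). The WT level lay at percentile 91.3 of all promoters. With normexp background correction, however, Klf4 was the highest in WT, at 0.86 against 0.49 for Sox2. WT and Eed-KO overlapped, and Dnmt1-KO stood above both.

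Pou5f1, the POU-domain factor at the centre of the network, had levels of 0.42 ± 0.34 in WT, 0.15 ± 0.22 in Eed-KO and 1.29 ± 0.42 in Dnmt1-KO (chr17:35113458-35114546). The Krüppel-like factors Klf2 and Klf4 can replace one another in part in sustaining self-renewal. Klf2 had 0.42 ± 0.18 in WT, 0.30 ± 0.41 in Eed-KO and 2.17 ± 0.57 in Dnmt1-KO (chr8:75247703-75248497). Klf4 had 0.46 ± 0.22 in WT, 0.23 ± 0.26 in Eed-KO and 1.46 ± 0.36 in Dnmt1-KO (chr4:55553173-55553925). In these 3 genes Dnmt1-KO was the highest genotype, and the WT levels of all 3 lay between percentiles 75.2 and 79.3 of all promoters. In WT, Pou5f1, Klf2 and Klf4 differed from each other by far less than the SD over their probes.

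Esrrb, an orphan nuclear receptor, had levels near 0 in every genotype, at 0.04 ± 0.17 in WT, 0.08 ± 0.21 in Eed-KO and 0.12 ± 0.43 in Dnmt1-KO (chr12:87249691-87250604). The zinc-finger gene Zfp42 (Rex1), a widely used marker of naive ES cells, had 0.32 ± 0.30 in WT, 0.10 ± 0.31 in Eed-KO and 0.37 ± 0.49 in Dnmt1-KO (chr8:44804953-44806391). Sall4, a spalt-like zinc-finger factor that binds with Pou5f1, had 0.07 ± 0.37 in WT, 0.28 ± 0.34 in Eed-KO and 0.91 ± 0.81 in Dnmt1-KO (chr2:168457966-168458809). The 3 genotypes overlapped within the probe SD at Esrrb, Zfp42 and Sall4. In order of WT level the members ran Esrrb, Sall4, Zfp42, Pou5f1, Klf2, Klf4 and Sox2, and no neighbouring pair in that order differed by more than the larger probe SD of the pair.

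**Figure D1:**
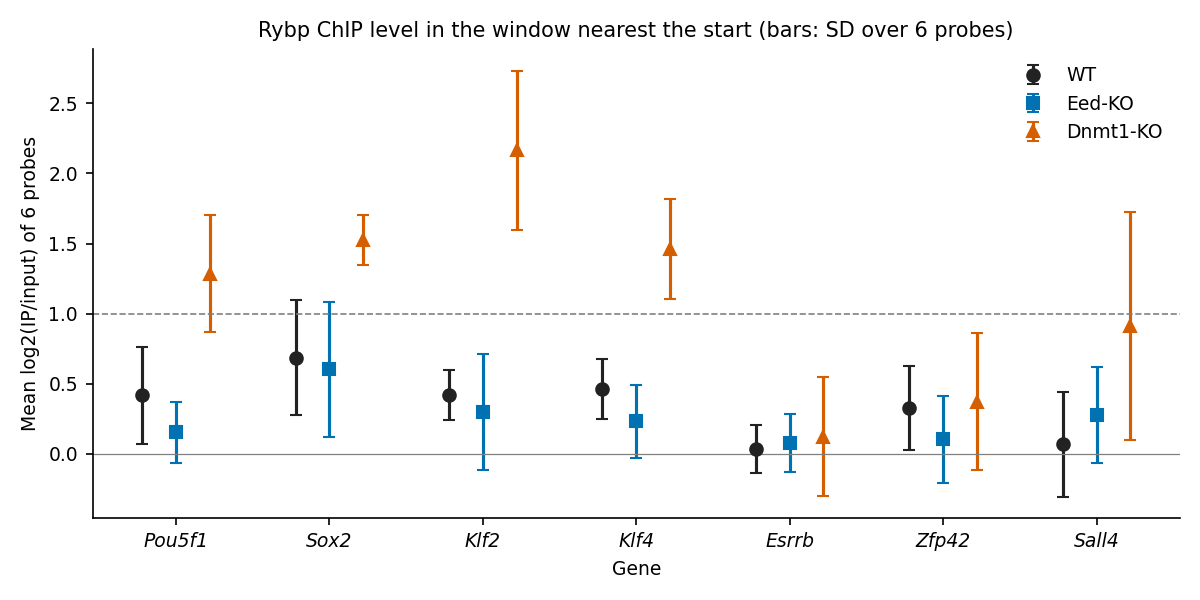
Level of each gene in the start window (mean log2 IP/input of 6 probes) in WT (circles), Eed-KO (squares) and Dnmt1-KO (triangles), with bars for the SD over probes and a dashed line at a level of 1. Pou5f1, Sox2, Klf2 and Klf4 lie above the line in Dnmt1-KO, with Klf2 at 2.17, and no gene does in WT or Eed-KO.

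Loss of Eed left the levels of the members close to those of WT. The differences Eed-KO minus WT ranged from -0.26 ± 0.10 at Pou5f1 to 0.21 ± 0.08 at Sall4 (SE over 6 probes), so none reached the difference rule of 1 (0% of all promoters were higher and 0% lower by that rule). The median over the 7 members was -0.12, against -0.06 over all promoters. Klf4 was lower by 0.23 ± 0.04, with 0 of 6 probes above WT, and Zfp42 by 0.22 ± 0.11, with 2 of 6 above. With the GC trend of each array removed, the Klf4 difference was -0.07 ± 0.08 with 3 of 6 probes above. Sall4 had 5 of 6 probes above WT, and its difference was at percentile 94.8 of all promoters, while those of Pou5f1 and Klf4 were at percentiles 8.99 and 12.8. With normexp background correction the Sall4 difference was 0.03 ± 0.04, at percentile 73.1. Esrrb (0.04 ± 0.05), Sox2 (-0.08 ± 0.08) and Klf2 (-0.12 ± 0.11) differed from WT by about the SE over probes. These errors cover the scatter between probes of 1 array, not that between cultures or hybridisations.

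In Dnmt1-KO the start window of every member read above WT, by amounts from 0.05 at Zfp42 to 1.75 at Klf2. Of all promoters, 75.2% read above WT. Klf2 was the 1 member past the difference rule, at 1.75 ± 0.19 with 6 of 6 probes above WT, against 18.9% of all promoters higher and 0% lower by the same rule. The difference at Klf2 lay at percentile 98.2 of all promoters. Klf4 fell just short, at 0.997 ± 0.13 with 6 of 6 probes above. With the GC trend removed the Klf4 difference was 0.25 ± 0.26 with 4 of 6 above, and its Dnmt1-KO level of 0.43 was no longer bound. Pou5f1 (0.87 ± 0.28), Sall4 (0.85 ± 0.35) and Sox2 (0.84 ± 0.20) formed a middle group with 5 or 6 of 6 probes above. Esrrb (0.09 ± 0.16) and Zfp42 (0.05 ± 0.28) differed from WT by less than the SE. The median over the members was 0.85, against 0.48 over all promoters. The 2 sets of differences share the WT arrays.

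The Dnmt1-KO arrays had a wider spread of log2 ratios than the others, with SDs of 0.957 and 0.912 against 0.413 to 0.468, and they came from another scanner model and software version, so genotype and scan cannot be told apart. With the arrays of each design set to 1 spread, 1 of 7 members was bound in Dnmt1-KO, Klf2 at 1.27, against 11.5% of all promoters. No member then passed the difference rule, against 0.482% of promoters higher and 0.127% lower. The scaled differences were 0.70 at Klf2, 0.44 at Sall4, 0.23 at Pou5f1 and at Klf4, 0.03 at Esrrb, -0.04 at Sox2 and -0.22 at Zfp42. On this scale 5 of 7 members read above WT, against 63.6% of all promoters. The log2 input signal of the Klf2 window was 3.23 ± 1.28 above WT on the Dnmt1-KO array (SD over 6 probes) and the IP signal 4.97 ± 1.72 above. The input of the windows was also above WT at Sox2 (2.29), Esrrb (2.19), Klf4 (2.10), Pou5f1 (1.35), Sall4 (1.18) and Zfp42 (0.18). The SDs over these probes ran from 1.00 at Klf4 to 1.97 at Zfp42. Over the probes of each gene the median input difference was -0.91 at Sox2 and -1.52 at Zfp42, and above 0 at the other members. The part of input signal in the ratio differences was not tested for any member.

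**Figure D2:**
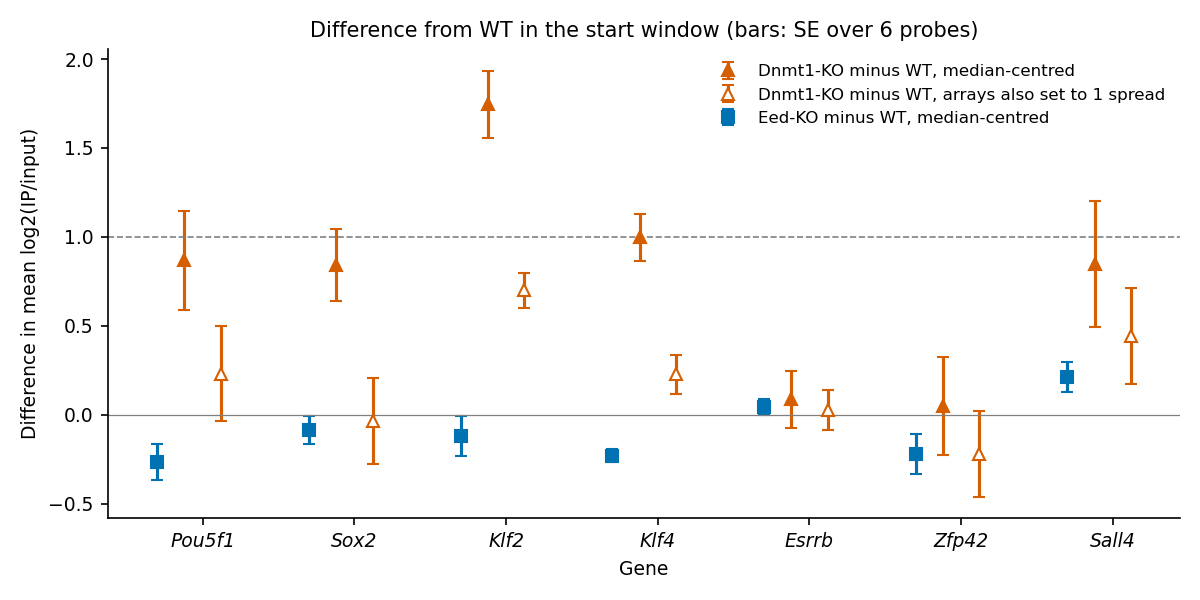
Difference from WT in the start window for Eed-KO (squares) and for Dnmt1-KO before (filled triangles) and after (open triangles) the arrays were set to 1 spread, with bars for the SE over 6 probes and a dashed line at the difference rule. Klf2 falls from 1.75 to 0.70 with the scaling and Sox2 from 0.84 to -0.04, whereas the Eed-KO differences stay between -0.26 and 0.21.

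The profile along each gene was also read by single probes, which are not averaged as the 6 probes of the start window are. Within 6 kb of the start the members had 250 unflagged probes, 29 to 38 per gene. A level of at least 1 was reached by 8 of them in WT (3.2%, against 2.72% of all promoter probes within that distance), 10 in Eed-KO (4%, against 3.27%) and 72 in Dnmt1-KO (28.8%, against 15.7%). Of the 8 WT probes, 5 were in Sox2, 2 in Klf4 and 1 in Pou5f1. In Dnmt1-KO they were spread over Klf4 (19), Sall4 (17), Klf2 (14), Pou5f1 (11), Sox2 (10) and Zfp42 (1), with none in Esrrb. With arrays set to 1 spread the counts were 20 in WT, 20 in Eed-KO and 23 in Dnmt1-KO (8%, 8% and 9.2%, against 5.96%, 5.46% and 6.36% of all promoter probes). On that scale Pou5f1 had 5 such probes in WT and 1 in Dnmt1-KO, Sox2 had 7 and 5, Klf4 6 and 7, and Klf2 0 and 6. No probe differed by 1 or more between Eed-KO and WT, in either direction, against 0.303% of all promoter probes higher and 0.447% lower. Between Dnmt1-KO and WT, 45 probes were higher (18%, against 10.9% of all promoter probes) and 8 lower (3.2%, against 8.08%). On the scale of 1 spread these Dnmt1-KO counts were 9 and 8 (3.6% and 3.2%, against 3.19% and 3.51%). Those of Eed-KO were 2 and 3 (0.8% and 1.2%, against 0.802% and 1.14%).

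**Figure D3:**
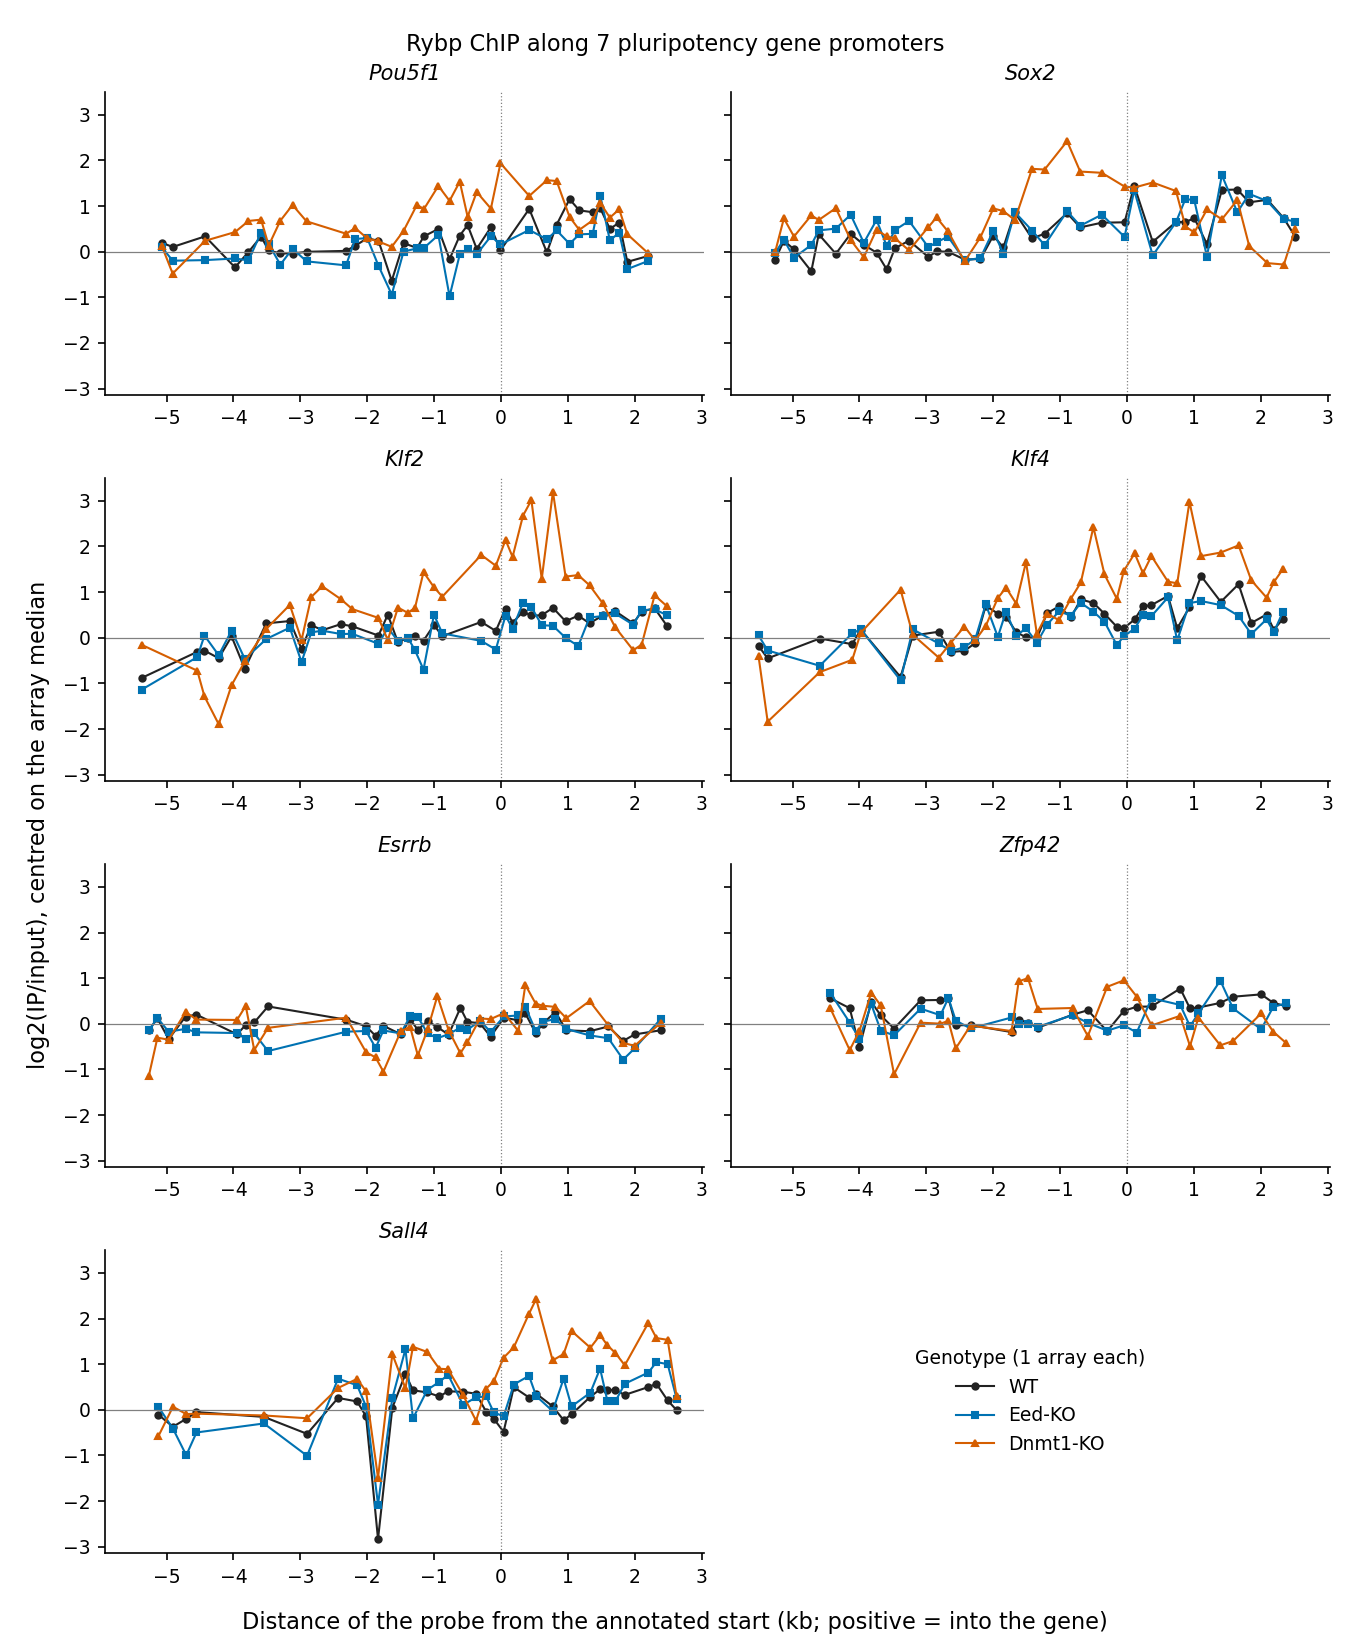
Centred log2 IP/input of every probe within 6 kb of the annotated start of 7 genes, with distance in kb on the horizontal axis (positive into the gene), in WT (circles), Eed-KO (squares) and Dnmt1-KO (triangles), 1 array each. Sox2 in Dnmt1-KO peaks at 2.42 upstream of the start and falls to -0.28 downstream, where WT stays at 0.73, while no probe of Esrrb passes 0.85 in any genotype.

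Sox2 is a single-exon gene, and its WT and Eed-KO signal was highest past the start. The highest WT probe, 107 bases after the start, read 1.45 in WT, 1.35 in Eed-KO and 1.40 in Dnmt1-KO. The probe 1417 bases after the start read 1.35 in WT, 1.68 in Eed-KO and 0.71 in Dnmt1-KO. At 2098 bases the readings were 1.14, 1.11 and -0.25 in the same order. Dnmt1-KO went from 1.40 to -0.25 over these 3 probes. Those at 107 and 1417 bases were picked as the highest of Sox2 in WT and in Eed-KO. The one at 2098 bases was chosen after its values were seen. Levels above 1 in WT and Eed-KO at these probes are thus no test of a difference between genotypes. Over the 8 probes 1000 to 3000 bases after the start, Dnmt1-KO averaged 0.41 ± 0.52 and WT 0.86 ± 0.45 (SD over probes). Upstream, the probe 896 bases before the start read 0.84 in WT, 0.89 in Eed-KO and 2.42 in Dnmt1-KO. It was picked as the highest of Sox2 in Dnmt1-KO, so it is no such test either. That probe holds no CpG.

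At Pou5f1, as at Sox2, the highest probe of each genotype lay at a different place, with less height. Its highest WT probe lay 1024 bases after the start, with 1.15 in WT, 0.17 in Eed-KO and 0.76 in Dnmt1-KO. The highest Eed-KO probe lay 1484 bases after the start and read 0.95 in WT, 1.22 in Eed-KO and 1.07 in Dnmt1-KO. The highest Dnmt1-KO probe was centred 9 bases before the start, with 0.03 in WT, 0.16 in Eed-KO and 1.94 in Dnmt1-KO. Each of these probes was picked as the highest of Pou5f1 in 1 genotype, which favours probes where that genotype stands out. They are thus no test of a displacement between genotypes.

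The probes of 45 to 60 bases printed next carried these peaks, or were the highest or lowest of their gene in at least 1 genotype. Those centred before the start are shown as listed in the scanner files, with each CpG in capitals. The Pou5f1 probe runs across the start.
Sox2, highest in Dnmt1-KO: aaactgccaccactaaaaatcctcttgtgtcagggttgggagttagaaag
Pou5f1, highest in Dnmt1-KO: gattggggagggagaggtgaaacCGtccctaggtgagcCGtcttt
Zfp42, highest in Dnmt1-KO: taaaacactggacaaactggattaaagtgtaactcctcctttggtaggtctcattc
Esrrb, highest in WT: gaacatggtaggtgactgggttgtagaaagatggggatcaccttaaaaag
Sall4, highest in WT: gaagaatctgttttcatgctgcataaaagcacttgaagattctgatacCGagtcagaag
Sall4, lowest in all 3 genotypes: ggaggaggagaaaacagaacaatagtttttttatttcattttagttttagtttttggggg
The Sox2 probe is at chr3:34840683-34840732 and the Pou5f1 probe at chr17:35114072-35114116. The Zfp42 probe (chr8:44807231-44807286) lies 1481 bases before the start and read 0.03 in WT, 0.00 in Eed-KO and 1.00 in Dnmt1-KO. The Esrrb probe (chr12:87246712-87246761) lies 3483 bases before and read 0.38 in WT, -0.60 in Eed-KO and -0.09 in Dnmt1-KO. The higher Sall4 probe (chr2:168459806-168459864) lies 1429 bases before and read 0.79 in WT, 1.33 in Eed-KO and 0.48 in Dnmt1-KO. It was the highest probe of Sall4 in Eed-KO as well as in WT. The lowest Sall4 probe (chr2:168460216-168460275), 1839 bases before the start, holds runs of T and read -2.83, -2.08 and -1.49. Its input intensity was 23014 in WT and 35518 in Eed-KO, far above the WT array's median input of 865, and it entered no start window.

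Klf2 and Klf4 had their highest Dnmt1-KO probes inside the gene. At Klf2, the probe 775 bases after the start read 0.66 in WT, 0.26 in Eed-KO and 3.20 in Dnmt1-KO, and it was also the highest WT probe of that gene. At Klf4, the highest Dnmt1-KO probe, 933 bases after the start, read 0.67 in WT, 0.76 in Eed-KO and 2.98 in Dnmt1-KO. The highest WT probe of Klf4, 1106 bases after the start, read 1.35 in WT, 0.80 in Eed-KO and 1.79 in Dnmt1-KO. These genes also had the lowest readings of the set in Dnmt1-KO, with -1.90 at Klf2 4220 bases before the start and -1.84 at Klf4 5371 bases before. The Dnmt1-KO profile spanned 5.09 at Klf2 and 4.82 at Klf4, against 1.53 and 2.21 in WT. After scaling to 1 spread the spans were 2.98 in Dnmt1-KO and 2.07 in WT at Klf2, and 2.82 and 2.99 at Klf4.

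Esrrb stayed below a level of 1 at every probe, with WT readings between -0.37 and 0.38, Eed-KO between -0.78 and 0.37 and Dnmt1-KO between -1.14 and 0.85. Its highest Dnmt1-KO probe lay 363 bases after the start. At Zfp42 the highest WT probe, 795 bases after the start, read 0.77 in WT, 0.41 in Eed-KO and 0.17 in Dnmt1-KO, and 11 of its 29 probes were above WT in Dnmt1-KO. At Sall4 the highest Dnmt1-KO probe, 525 bases after the start, read 0.36 in WT, 0.30 in Eed-KO and 2.43 in Dnmt1-KO, and 31 of its 36 probes were above WT. By position, the Zfp42 probes above WT in Dnmt1-KO were 7 of 15 more than 1000 bases before the start and 4 of 8 within 1000 bases. From 1000 to 3000 bases after the start they were 0 of 6. In Eed-KO, 24 of 36 Sall4 probes and 26 of 38 Sox2 probes were above WT, against 9 of 36 at Pou5f1. Another 21 probes were annotated to members from farther away. Of these, 17 lay 19991 to 24925 bases after the Sall4 start, over the promoter of Atp9a, with a highest Dnmt1-KO reading of 2.66. The other 4 lay 6344 to 11059 bases after the Pou5f1 start, by Tcf19 and Cchcr1, with a highest Dnmt1-KO reading of 1.15.

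Levels at and past the start were summarised in segments set after the profiles had been seen. The probes within 1000 bases of the start were compared with those 1000 to 3000 bases after it. In WT the downstream segment was above the start segment in 6 of 7 members (Esrrb was the exception), against 22.2% of 13886 promoters with at least 4 probes in each segment. In Eed-KO it was so in the same 6 of 7, against 27.9%. In Dnmt1-KO it was so in Sall4 alone, 1 of 7, against 18.5%, and with the GC trend removed in 3 of 7 (Klf4, Esrrb and Sall4), against 26.3%. This order is taken within an array, so centring and spread do not change it. The gaps in WT were small, from 0.05 at Klf2 to 0.25 at Pou5f1, and within the SD over probes. With normexp background correction the count was 4 of 7 in WT, against 22% of promoters, and 4 of 7 in Eed-KO, against 25.6%, in both without Klf2 and Klf4.

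By segment, Sox2 had means of 0.70 ± 0.35 within 1000 bases and 0.86 ± 0.45 downstream in WT (SD over 8 probes each). In Eed-KO they were 0.71 ± 0.46 and 0.91 ± 0.53, and in Dnmt1-KO 1.52 ± 0.52 and 0.41 ± 0.52. Over these segments, Sox2 was the 1 member above WT within 1000 bases and below it downstream in Dnmt1-KO, by 0.81 ± 0.22 and -0.45 ± 0.25 (SE), a pattern that 39.7% of promoters had. With arrays set to 1 spread the Sox2 differences were -0.06 and -0.92, and the pattern was instead present at Pou5f1, Klf2 and Klf4, against 29.3% of promoters. The start difference minus the downstream difference was 1.44 at Klf2, 1.27 at Sox2 and 0.96 at Pou5f1, against a median of 0.46 over promoters. It was 0.61 at Zfp42, 0.17 at Klf4, 0.02 at Esrrb and -0.17 at Sall4. At Zfp42 the downstream segment was lower in Dnmt1-KO by 0.66 ± 0.12, with 0 of 6 probes above WT, and the segment within 1000 bases was at -0.05 ± 0.23. At Sall4 the downstream segment was higher by 1.06 ± 0.13, with 10 of 10 probes above WT.

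**Figure D4:**
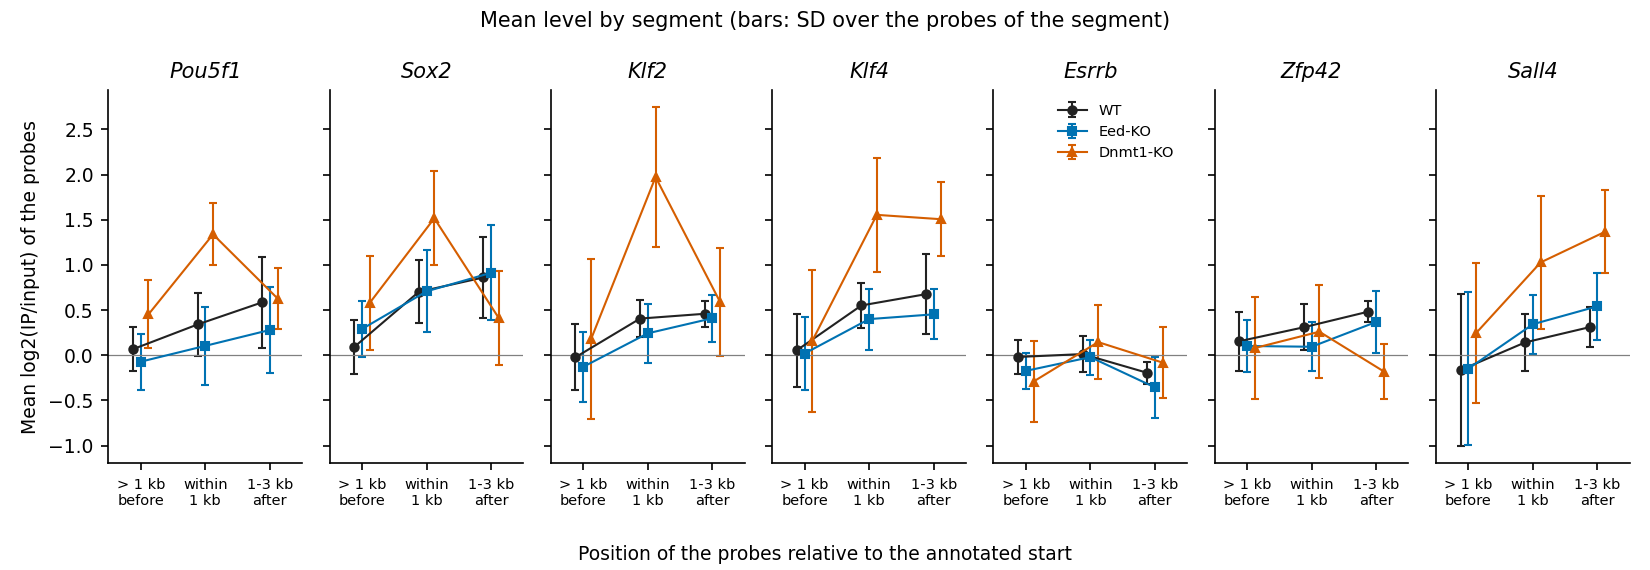
Mean log2 IP/input of the probes over 1 kb before the start, within 1 kb of it and 1 to 3 kb after it for each gene, in WT (circles), Eed-KO (squares) and Dnmt1-KO (triangles), with bars for the SD over the probes. At Sox2 the Dnmt1-KO mean drops from 1.52 to 0.41 past the start while WT goes from 0.70 to 0.86.

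Levels went with the CpG content of the probe less closely in the members than over all promoter probes. Across the 250 probes the correlation of level with the number of CpGs was 0.18 in WT, 0.08 in Eed-KO and 0.34 in Dnmt1-KO, against 0.31, 0.21 and 0.40 over 439877 probes of all promoters. These are correlations across probes that share an array and a promoter, given as a description. In Dnmt1-KO the 120 member probes without a CpG had a median of 0.32, against -0.14 for all CpG-free promoter probes, and the 31 probes with 3 to 4 CpGs had 1.08, against 1.14. These medians after scaling to 1 spread were 0.19 against -0.08 and 0.63 against 0.69. In the start windows the CpG number per 100 probe bases was 8.42 at Klf4, 5.15 at Klf2, 3.48 at Sall4, 3.37 at Sox2, 2.66 at Zfp42, 2.08 at Pou5f1 and 1.71 at Esrrb. Pou5f1 had a level of 1.29 in Dnmt1-KO, at percentile 76.0 of all promoters. With the GC trend removed it read 0.91, and with arrays set to 1 spread 0.79. Probe levels in WT and Eed-KO correlated at 0.78 over the members (0.74 over all), and those in WT and Dnmt1-KO at 0.45 (0.53 over all).

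**Figure D5:**
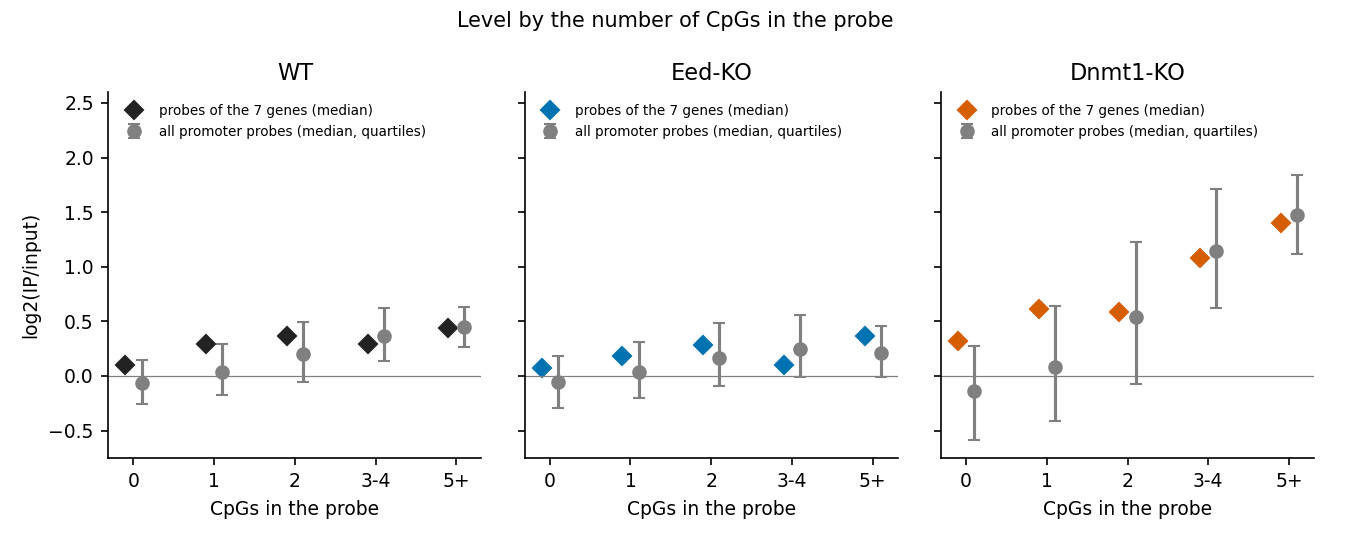
Median log2 IP/input by the number of CpGs in the probe (0, 1, 2, 3 to 4, 5 or more) for probes of the 7 genes (diamonds) and for all promoter probes (grey circles, bars from the lower to the upper quartile), 1 panel per genotype. In Dnmt1-KO the member median goes from 0.32 without CpGs to 1.08 with 3 to 4, whereas that of all probes goes from -0.14 to 1.14. The bin of 5 or more holds 6 member probes.

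The array signal near the members also differed between genotypes before any ratio was taken. Within 500 kb of Esrrb, the 114 probes of other promoters had a median log2 input 0.20 above WT in Eed-KO, and the IP signal was 0.20 above as well. Around Pou5f1 (1098 probes) the same medians were -0.10 for input and -0.12 for IP. In Dnmt1-KO the input around Pou5f1 was 1.08 above WT and that around Zfp42 1.26 below it. Of the 250 probes, 19 had an input signal not well above background on some array and 3 were saturated, with 1 saturated probe in the Klf2 window and 1 in the Klf4 window.

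Other genes of the network were read from 4 lists of genes. Among 36 further ES cell network promoters the median level was 0.43 in WT, 0.32 in Eed-KO and 0.95 in Dnmt1-KO, against 0.18, 0.11 and 0.70 over all promoters. By the rule 2 of the 36 were bound in WT (Mga and Tcl1), 3 in Eed-KO (with Tfap2c at 1.02) and 16 in Dnmt1-KO (5.56%, 8.33% and 44.4%, against 1.9%, 2% and 36% of all promoters), and 9 met the difference rule in Dnmt1-KO, all higher (18.9% of all promoters). With arrays set to 1 spread, 3, 3 and 9 were bound (6.89%, 4.58% and 11.5% of all promoters), 0 were higher and 1, Mga, was lower than WT. Mga had the highest WT level, with 1.71 in WT, 1.56 in Eed-KO and 2.17 in Dnmt1-KO, in a window 712 bases after the start. It is itself a subunit of a variant Polycomb complex that contains Rybp. The next highest was Tcl1, a co-activator of Akt kinase, with 1.23, 1.15 and 3.12 in the same order. The lowest were Nr5a2, a nuclear receptor, at -0.07 and Lin28a, an RNA-binding protein that blocks let-7 maturation, at 0.04.

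Of 30 promoters of signalling inputs, such as those of the LIF, FGF and Wnt pathways, 0 were bound in WT, 0 in Eed-KO and 19 in Dnmt1-KO, with medians of 0.39, 0.32 and 1.33 (1.9%, 2% and 36% of all promoters were bound). After scaling to 1 spread, 3, 4 and 6 were bound (10%, 13.3% and 20%, against 6.89%, 4.58% and 11.5% of all promoters). Lef1, a Wnt effector, had the highest WT level at 0.82 and Spry2, an FGF antagonist, the next at 0.80. Lifr, the LIF receptor subunit, stood at -0.13 and Fgfr1, whose window lay 8638 bases from the start, at -0.14. Of 23 promoters of primed and lineage genes, which are Polycomb-occupied in many ES cell studies, 4 were bound in WT (Eomes, Sox17, Otx2 and Lhx5), 9 in Eed-KO and 19 in Dnmt1-KO, which is 17.4%, 39.1% and 82.6%. The counts after scaling were 12, 12 and 15 (52.2%, 52.2% and 65.2%, against 6.89%, 4.58% and 11.5% of all promoters). Their medians on the first scale were 0.75, 0.83 and 1.78, above those of the core members in each genotype. Lhx5 at 1.23 and Otx2 at 1.18 were the highest in WT, and Tbx6 at -0.15 and Dnmt3a at -0.05, with a window 24821 bases from its start, the lowest. In Dnmt1-KO 12 signalling promoters and 12 primed and lineage promoters met the difference rule, which asks for a bound level in either genotype, against 18.9% of all promoters. After scaling, 0 of either list did, against 0.482% of all promoters higher and 0.127% lower.

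Of 17 fibroblast marker promoters, read because feeder fibroblasts may have been present, 0 were bound in WT, 3 in Eed-KO (Prrx1, Col1a2 and Twist2) and 6 in Dnmt1-KO, and 3 met the difference rule in Dnmt1-KO (Col1a2, Twist1 and Twist2). The shares bound were 0%, 17.6% and 35.3% of the list, against 1.9%, 2% and 36% of all promoters. By the difference rule 18.9% of all promoters were higher in Dnmt1-KO. Scaling to 1 spread turned the order, with 6 bound in WT, 4 in Eed-KO and 3 in Dnmt1-KO. These are 35.3%, 23.5% and 17.6%, against 6.89%, 4.58% and 11.5% of all promoters. Prrx1 at 0.98 and Fbn1 at 0.95 had the highest WT levels, and Col1a1 at -0.21 and Postn at -0.13 the lowest. The medians were 0.03 in WT, 0.22 in Eed-KO and 0.63 in Dnmt1-KO. The part of fibroblast chromatin in any level was not tested. With arrays set to 1 spread, the median difference Dnmt1-KO minus WT was 0.23 in the core members, 0.08 in the other network genes, 0.25 in the signalling list, 0.00 in the primed and lineage list and 0.01 in the fibroblast list, against 0.12 over all promoters. No promoter of the 4 lists met the difference rule between Eed-KO and WT.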

How the data were processed

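Per the labels, IP (Cy5) and input (Cy3) DNA of 3 genotypes were co-hybridised on 2 Agilent promoter array designs, 1 array each. Per the file headers, the deposited intensities (processed red and green signals) are background-subtracted and dye-normalised by Agilent Feature Extraction, version 9.5.3.1 for WT and Eed-KO and 10.1.1.1 for Dnmt1-KO, and the submitters' processing notes list 9.5.3.1 for all. The authors' deposited log10 ratios, used as an alternative, equal those ratios within 0.001 up to a constant per array. Their column medians run from -0.121 to -0.025.

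Here log2 IP/input was computed, flagged spots were removed and each array was centred on its median, without loess. Genes were assigned by symbol or accession (17554 of 18267 accessions matched RefSeq). The main window is the run of 6 probes within 3 kb nearest the start. With 1 array per genotype and design no test was run, and precision is limited by the number of arrays. Fixed sizes of 1 (log2) called bound promoters and, among promoters bound in either genotype, differences. All found members are named, and for each list the 2 highest and 2 lowest by WT level, with list promoters past the Eed-KO rule. Members and lists were chosen with earlier results of these data known, and the segments, other single probes, and list genes named for a small count (Eomes, Sox17, Tfap2c, Col1a2, Twist1, Twist2) were chosen after their values were seen. Probe sequences are shown only for probes centred before the start, since exons and UTRs were not mapped. The calculation was checked on simulated data. Tools were R 4.3.3, limma 3.58.1, Python 3.11.15 and statsmodels 0.14.6.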

Additional observations from a re-analysis of the deposited data

How the results depend on the processing

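No paired analysis was possible because each genotype has 1 array per design and no test was run. No member differed between Eed-KO and WT by the rule under any setting tried, and the median Eed-KO difference ranged from -0.22 to 0.01. Bound members in WT numbered 1 at a bound level of 1.5-fold (12.9% of all promoters, and so on in brackets) and 3 with the highest-mean window and arrays set to 1 spread (14%), a combination chosen after seeing the data. In Eed-KO they numbered 1 at 1.5-fold (10.6%) and 1 with the window of highest mean over WT and Eed-KO (6.86%). In Dnmt1-KO they numbered 1 with arrays set to 1 spread (11.5%), 2 with the GC trend removed (17.7%), which ended the calls of Klf4 and Pou5f1, 0 with both (4.1%), 2 with the window chosen on WT and Eed-KO (36.3%), 0 over all probes of the gene (2.54%) and 1 at 3-fold (13.7%). Members past the difference rule in Dnmt1-KO numbered 2 with centring on the mode (21%), with 4 probes nearest the start (24.1%) and without saturated spots (18.5%), and 3 with the highest-mean window (25.8%). They numbered 0 with 1 spread (0.609%), with 1 spread and the GC trend removed (0.349%), over all probes (0.2%), and with the highest-mean window and 1 spread (1.09%). The median Dnmt1-KO difference was 0.228 with 1 spread, 0.0238 after removal of the GC trend in addition, 0.0545 with the window chosen on WT and Eed-KO and 0.0153 with the highest-mean window and 1 spread. Members with the downstream segment above the start in Dnmt1-KO numbered 3 with the GC trend removed (26.3%), an alternative added after seeing the data. The Klf2 difference in Dnmt1-KO reversed to -0.0468 with the window chosen on WT and Eed-KO, which is centred 1820 bases after the start. Why the other values moved was not tested. Of the other values under these settings, 424 moved by less than the spread over probes (for counts, less than 1.5 times) and 102 by more.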
